A study of Homo sapiens with 6 samples.

Results

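A set of 35 prostate genes known to be induced by androgen, other than the kallikreins, was followed in LNCaP cells with and without knockdown of prostate-specific membrane antigen (PSMA, encoded by FOLH1). The genes were taken by name, and 31 of the 35 had a probe set paired with that gene symbol alone. Of these, 30 passed the filter on dim signals and were tested among 9241 genes. STEAP4 was measured but stayed under the filter. SLC45A3, SORD and ADAM7 are not analysed here, and HERC3 had only a probe set shared with another symbol.

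LNCaP is a human prostate cancer cell line of luminal type that makes PSMA. The control group was 3 arrays of untreated LNCaP cells grown in RPMI. The knockdown group was 3 arrays of LNCaP cells transduced with a retroviral shRNA-mir against PSMA and grown in the same medium. The labels name neither an empty-vector control nor a number of clones, nor whether replicates were separate cultures. Where they were not, a p-value here reflects technical spread alone. Since only the knockdown cells were transduced, loss of PSMA and transduction itself cannot be told apart in any difference between the groups. No group was treated with androgen or deprived of it, so induction itself was not measured.

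Androgen enters luminal cells and binds its nuclear receptor, which leaves its chaperones, moves to the nucleus and binds DNA elements built of repeated half-sites, often far from the gene. Its targets include secreted products of the gland, membrane proteins, metabolic enzymes and regulators that feed back on the receptor. Many of them are read as a measure of receptor activity in prostate cancer.

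The androgen-induced genes did not move one way. In knockdown cells 13 of the 30 tested rose and 8 fell at a limma adjusted p under 0.05, and 9 did not pass the test. Those that passed in either direction were 70.0% of the 30, against 35.9% of all genes. The genes were chosen with earlier results of these data known, so the shares given here are a description and not an independent test of the set. With the filter raised to log2 6, 12 rose and 7 fell of 25 tested, where 1725 rose and 1516 fell of 6533 genes. At that filter AZGP1 was kept only because its knockdown arrays passed, so its rise there is not independent of the filter. AZGP1, NDRG1, PLPP1 and GNMT rose at least 2-fold, as 0.866% of all genes did, and HPGD fell by that much, as did 1.01% of all genes. Over all genes tested, 19.4% rose and 16.5% fell, whereas the shares among the androgen-induced genes were 43.3% and 26.7%. With a change of at least 1.5-fold also required, 8 rose and 3 fell, where the shares over all genes were 3.03% and 3.50%. The arrays of the groups did not overlap for 22 of the 30, or 73.3%, against 49.4% of all genes. Their median log2 difference, knockdown minus control, was 0.10 with a range of -1.03 to 2.03, beside a median of 0.03 over all genes. The median size of the difference regardless of sign was 0.33, beside 0.15 over all genes.

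**Figure D1:**
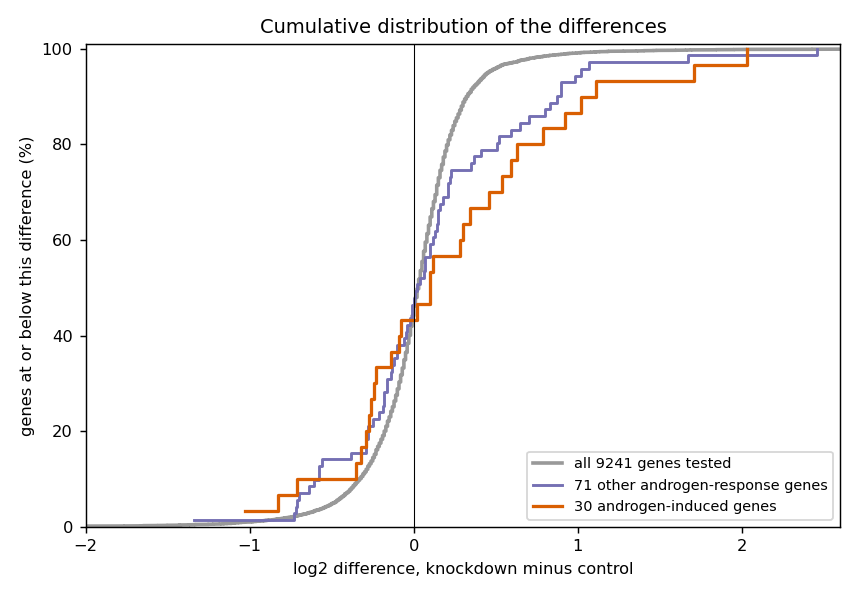
Cumulative share of genes (y axis, percent) at or below each log2 difference, knockdown minus control (x axis, shown from -2 to 2.6), for all 9241 genes tested, 71 other androgen-response genes and the 30 androgen-induced genes. The line of the androgen-induced genes runs from -1.03 to 2.03 and is spread to both sides of 0, with medians of 0.10 for these genes and 0.03 for all genes.

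The target gene was lower in each knockdown array. The 3 probe sets shared by FOLH1 and its near-identical copy FOLH1B had a mean log2 difference of -2.41. The probe set paired with FOLH1 alone differed by less, at 6.35, 6.44 and 6.35 in control and 5.34, 6.05 and 5.37 in knockdown arrays (log2 difference -0.79, limma adjusted p = 0.0125 over all probe sets). Luminal keratins were bright in both groups, with KRT18 at 11.57 in each on the log2 scale. The summed level of the 4 measured luminal markers was 11.98 to 12.13 in control and 11.88 to 12.06 in knockdown arrays, and KLK3 and HOXB13 among them fell. Of the fibroblast and smooth muscle markers, 1 of 4 past the filter rose (ACTA2, by 0.95 on the log2 scale), while COL1A2 and LUM stayed under the filter. The summed level of this list was 7.88 to 8.04 in control and 8.38 to 8.40 in knockdown arrays. Of the 2 neuroendocrine markers past the filter, ENO2 fell by 0.58 on the log2 scale. Among basal, leukocyte and endothelial markers 5 passed the filter, and 0 of them passed the test. The 18 probe sets of the hybridisation controls averaged 11.34 ± 0.08 in control and 10.51 ± 0.13 in knockdown arrays (log2, SD, n = 3). The 5′ minus 3′ signal of beta-actin was lower in knockdown arrays by a log2 difference of -0.82, and that of GAPDH by -0.10. An exact permutation test, two-sided, gave p = 0.1 for each of these 3 control measures, the smallest that 3 arrays against 3 allow. Their part in the results below was not tested, and array handling and group cannot be told apart.

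Secreted products and the secretory machinery held the largest rise. Of 5 genes tested, 4 rose and 0 fell, where 19.4% and 16.5% of all genes did. AZGP1, which encodes the secreted zinc-alpha-2-glycoprotein, measured 5.26, 5.25 and 5.47 in control arrays and 7.35, 7.33 and 7.41 in knockdown arrays on the log2 scale. All knockdown arrays lay far above all control arrays. The log2 difference was 2.03 (SE 0.07, limma adjusted p = 2.5e-06), a 4.1-fold rise and the rise ranked 13 of 9241 genes. ACP3, the prostatic acid phosphatase secreted into seminal fluid, had control values of 6.40, 6.45 and 6.45 and knockdown values of 7.12, 7.36 and 7.19. Its groups did not overlap, and it rose 1.73-fold (log2 difference 0.79, SE 0.07, adjusted p = 1.8e-04).

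RAB27A, a small GTPase that docks secretory granules and exosomes at the membrane, measured 8.63, 8.73 and 8.71 in control and 9.36, 9.22 and 9.27 in knockdown arrays. It rose 1.51-fold (log2 difference 0.59, SE 0.06, adjusted p = 2.8e-04). All 4 of its probe sets were higher, by 0.33 to 0.81. TPD52, a vesicle trafficking protein, rose by a log2 difference of 0.30 (SE 0.06, adjusted p = 0.00767). Its other probe sets differed by 0.32, 0.34 and 0.08, and the last did not pass the test of all probe sets (adjusted p = 0.303). MSMB, a major protein of seminal plasma, was dim and did not pass the test. It lay between 4.53 and 4.73 in knockdown arrays and at 4.67, 4.73 and 5.32 in control arrays, so that control replicate 1 alone stood high. Its log2 difference was -0.27 (adjusted p = 0.241), or -0.06 without that array.

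**Figure D2:**
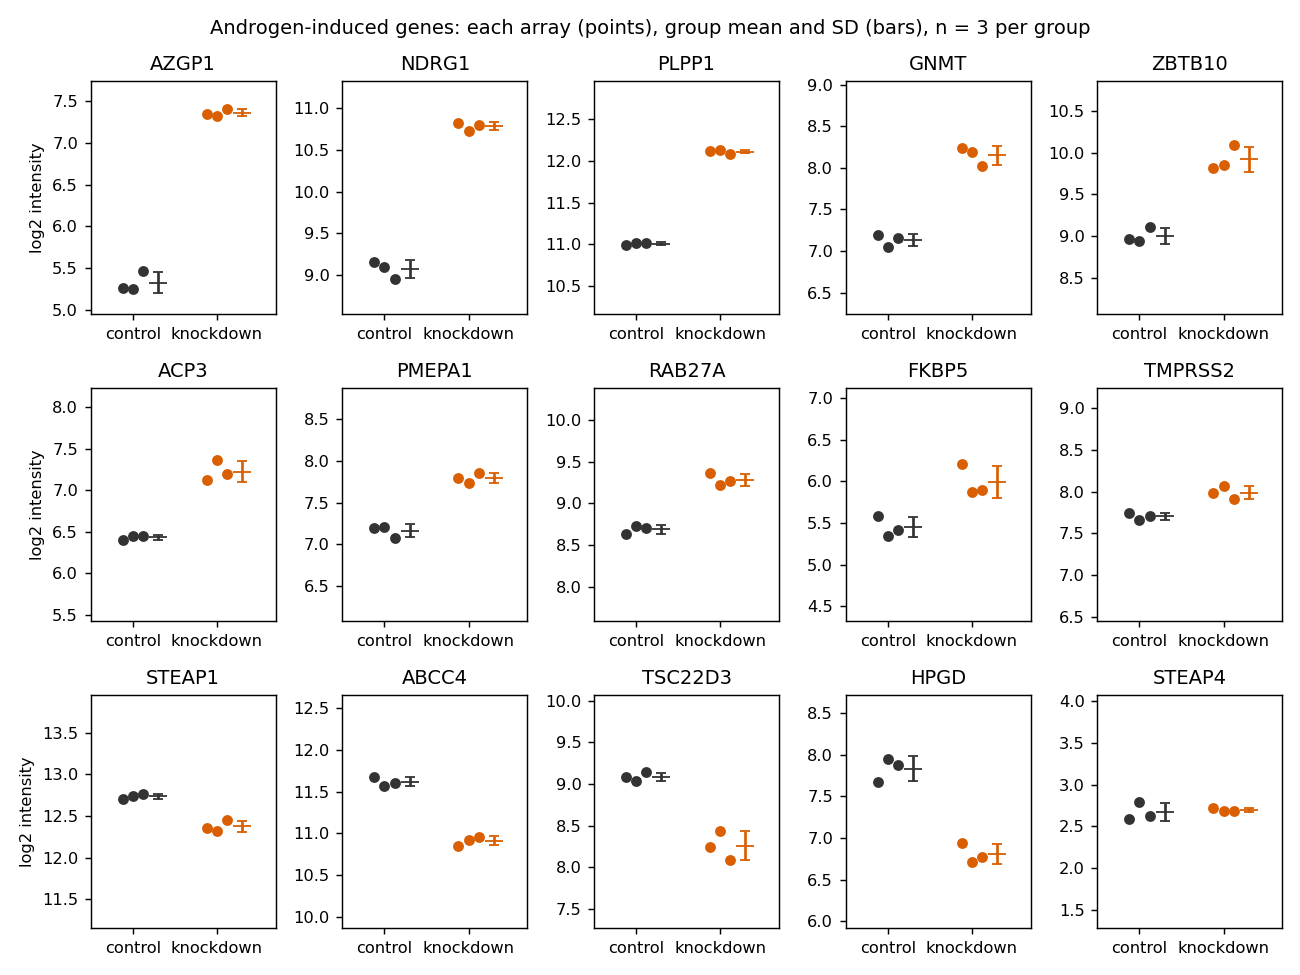
Log2 intensity (y axis, the same span of 2.8 in each panel) in the control and knockdown arrays for 15 genes, with each array as a point and the group mean and SD (n = 3) beside it. The points of the groups do not overlap in any panel except STEAP4, which lies under 2.8 on the log2 scale in all arrays. Of the 15 genes, 11 are those that passed the test with a change of at least 1.5-fold, so their separation largely follows from the choice. Over all genes tested, the arrays of the groups did not overlap for 49.4%.

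The RefSeq table (GRCh38.p14) held promoter windows for 24 of the 35 genes, each from 250 bases before to 50 bases after a transcript start. They were searched on both strands for the half-site AGAACA, which reads TGTTCT on the other strand, and for the full element, which is AGAACA followed after 3 bases by TGTTCT. The half-site was in 14.8% of all 35116 windows and in 6 of the 45 windows of these genes, or 13.3%. The full element was in 1 of all windows and in 0 of these. FKBP5, RAB27A and PMEPA1, which rose, had a half-site in at least 1 window, as did TRPM8 and LIFR, which did not pass the test. A half-site lay in 4 of the 16 windows of genes that rose (25%) and in 2 of 13 of those not past the test. None lay in the 12 windows of the 7 genes that fell and had a window, where 14.8% of all windows held the half-site. AZGP1, GNMT and ACP3, which rose, had none either. Counted by gene, a half-site was found in 3 of 8 that rose, 0 of 7 that fell and 2 of 6 not past the test. Over all genes with a window the share was 17.5%. The windows are few, several can belong to 1 gene, as for RAB27A and PMEPA1, and some overlap, among them windows of TSC22D3. A link between the half-site and the direction of change was not tested. A match is a string of letters and not a measured binding site, and a window without one says nothing of sites elsewhere. The windows shown are the 4 with a half-site in genes that rose, that of AZGP1 as the largest rise and that of ABCC4 as a gene that fell. They lie at chr7:99975982-99976281 (AZGP1), chr6:35728534-35728833 (FKBP5), chr20:57711423-57711722 and chr20:57710528-57710827 (PMEPA1), chr15:55270350-55270649 (RAB27A) and chr13:95301402-95301701 (ABCC4), all on the minus strand. Each is printed 5′ to 3′ along the gene, with half-sites in capitals.
AZGP1: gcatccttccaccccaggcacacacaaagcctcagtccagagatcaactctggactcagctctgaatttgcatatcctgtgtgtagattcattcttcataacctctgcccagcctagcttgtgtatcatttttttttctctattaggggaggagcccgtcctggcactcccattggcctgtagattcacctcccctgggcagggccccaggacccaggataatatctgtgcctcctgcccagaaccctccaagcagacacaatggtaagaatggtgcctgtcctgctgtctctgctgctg
FKBP5: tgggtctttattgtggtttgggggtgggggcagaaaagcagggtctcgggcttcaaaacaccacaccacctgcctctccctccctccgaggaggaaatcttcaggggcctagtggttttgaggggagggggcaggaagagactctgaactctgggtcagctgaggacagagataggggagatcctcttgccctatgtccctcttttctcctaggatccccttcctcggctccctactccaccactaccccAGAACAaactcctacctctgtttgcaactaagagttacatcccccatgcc
PMEPA1 start at the first interval: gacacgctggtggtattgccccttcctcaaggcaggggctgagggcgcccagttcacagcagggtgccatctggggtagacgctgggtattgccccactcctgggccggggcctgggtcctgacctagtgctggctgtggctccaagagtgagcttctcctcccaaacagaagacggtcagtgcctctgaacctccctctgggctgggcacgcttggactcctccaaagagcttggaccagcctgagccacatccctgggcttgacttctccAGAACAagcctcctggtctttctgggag
PMEPA1 start at the second interval: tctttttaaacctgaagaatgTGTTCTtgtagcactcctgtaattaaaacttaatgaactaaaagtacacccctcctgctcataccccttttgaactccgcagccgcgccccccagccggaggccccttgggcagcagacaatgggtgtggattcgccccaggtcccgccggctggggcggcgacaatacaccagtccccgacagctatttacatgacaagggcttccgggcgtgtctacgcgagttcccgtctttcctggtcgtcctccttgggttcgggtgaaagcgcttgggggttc
RAB27A: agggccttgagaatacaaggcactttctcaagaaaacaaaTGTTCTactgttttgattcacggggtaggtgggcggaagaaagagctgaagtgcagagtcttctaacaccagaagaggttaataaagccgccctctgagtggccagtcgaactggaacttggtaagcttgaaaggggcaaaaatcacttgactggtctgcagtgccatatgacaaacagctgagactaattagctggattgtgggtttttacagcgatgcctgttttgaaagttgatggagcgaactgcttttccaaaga
ABCC4: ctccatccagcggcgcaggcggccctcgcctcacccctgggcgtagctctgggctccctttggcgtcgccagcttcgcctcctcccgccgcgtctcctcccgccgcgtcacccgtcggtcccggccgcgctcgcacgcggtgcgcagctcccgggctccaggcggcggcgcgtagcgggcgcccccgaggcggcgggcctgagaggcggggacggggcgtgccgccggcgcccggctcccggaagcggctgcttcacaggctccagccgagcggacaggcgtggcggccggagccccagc

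Metabolic enzymes moved in both directions. All 5 tested passed the test, as did 35.9% of all genes, with 2 higher and 3 lower. PLPP1, a membrane phosphatase that strips phosphate from lipids such as lysophosphatidic acid, measured 10.99, 11.02 and 11.01 in control and 12.12, 12.13 and 12.09 in knockdown arrays. The groups were far apart and each was tight, with a 2.15-fold rise (log2 difference 1.11, SE 0.05, limma adjusted p = 5.6e-06). Its other probe set rose by 1.22. GNMT, the methyltransferase that turns glycine into sarcosine, rose 2.02-fold, from 7.19, 7.05 and 7.16 to 8.24, 8.19 and 8.02 (log2 difference 1.02, SE 0.07, adjusted p = 7.1e-05).

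HPGD, which inactivates prostaglandins by oxidation, was the largest fall of the set. It measured 7.67, 7.95 and 7.88 in control and 6.94, 6.71 and 6.77 in knockdown arrays, with no overlap. The fall was 2.04-fold (log2 difference -1.03, SE 0.09, adjusted p = 1.8e-04), and its 4 probe sets gave differences of -1.03 to -0.61. ALDH1A3, which makes retinoic acid, fell by a log2 difference of -0.32 (SE 0.06, adjusted p = 0.00495). NNMT, which methylates nicotinamide with the methyl donor that GNMT also uses, fell by -0.26 (SE 0.05, adjusted p = 0.00463). The second NNMT probe set, close to the filter level, differed by -0.04, and with the mean of both the NNMT difference was -0.15 and no longer passed (adjusted p = 0.067).

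Of 6 regulators of transcription and receptor cochaperones tested, 3 rose, 1 fell and 2 did not pass, beside 19.4% higher and 16.5% lower over all genes. FKBP5, which binds the chaperone HSP90 in steroid receptor complexes, measured 5.59, 5.35 and 5.42 in control and 6.21, 5.87 and 5.90 in knockdown arrays. Knockdown replicate 1 was the highest, and all knockdown arrays lay above all control arrays. The FKBP5 rise was 1.45-fold (log2 difference 0.54, SE 0.11, limma adjusted p = 0.00656). ZBTB10, a zinc-finger transcription factor, went from 8.96, 8.94 and 9.11 to 9.82, 9.85 and 10.09, a 1.89-fold rise (log2 difference 0.92, SE 0.09, adjusted p = 2.2e-04).

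The elongation factor partner EAF2 had values of 7.81, 7.99 and 8.05 in control and 8.52, 8.13 and 8.60 in knockdown arrays. The groups were separated by little, since knockdown replicate 2 lay just above the highest control array. EAF2 rose by a log2 difference of 0.46 (SE 0.12, adjusted p = 0.0233). The EAF2 rise no longer passed without control replicate 1 (adjusted p = 0.0737), control replicate 2 (0.0501), knockdown replicate 1 (0.0837) or knockdown replicate 3 (0.0786), and it held without control replicate 3 (0.0394) or knockdown replicate 2 (0.00423). The elongation factor ELL2 (0.10) and the Mediator subunit MED28 (0.12) did not pass the test. TSC22D3, a leucine zipper protein also induced by glucocorticoids, fell 1.77-fold. It measured 9.08, 9.04 and 9.14 in control and 8.24, 8.44 and 8.09 in knockdown arrays (log2 difference -0.83, SE 0.09, adjusted p = 4.6e-04). The other TSC22D3 probe set fell by 0.44 on the log2 scale.

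Membrane proteins of luminal cells showed 1 rise and 2 falls in 4 tested, and over all genes 19.4% rose and 16.5% fell. TMPRSS2, a membrane serine protease, had control values of 7.74, 7.66 and 7.71 and knockdown values of 7.98, 8.07 and 7.91. Its arrays did not overlap, but the rise was small, at 1.22-fold (log2 difference 0.28, SE 0.06, limma adjusted p = 0.00747). The second TMPRSS2 probe set rose by 0.26. STEAP1, a surface protein of the metalloreductase family, was bright, at 12.70, 12.74 and 12.76 in control and 12.36, 12.32 and 12.45 in knockdown arrays. It fell 1.28-fold (log2 difference -0.35, SE 0.05, adjusted p = 0.00218).

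STEAP4, a metalloreductase of the same family, lay at 2.59, 2.79 and 2.62 in control and 2.72, 2.68 and 2.68 in knockdown arrays. These values were under the filter in all arrays, and the groups overlapped. ABCC4, an exporter of cyclic nucleotides and prostaglandins, measured 11.68, 11.57 and 11.61 in control and 10.85, 10.92 and 10.96 in knockdown arrays. With no overlap it fell 1.64-fold (log2 difference -0.71, SE 0.06, adjusted p = 1.1e-04). TRPM8, a cold-gated cation channel, was dim and did not pass. Its control replicate 1 stood at 4.95 while its other arrays lay between 4.23 and 4.41, and the difference of -0.24 became -0.03 without that array. In RNA from whole cultures, fewer cells expressing a gene and less RNA per cell cannot be told apart.

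Of 5 receptors and signalling partners tested, 1 rose, 1 fell and 3 did not pass. Over all genes 35.9% passed, a share close to that of this role. PMEPA1, a membrane protein that restrains TGF-beta signalling, measured 7.20, 7.21 and 7.07 in control and 7.80, 7.73 and 7.85 in knockdown arrays. It rose 1.55-fold (log2 difference 0.63, SE 0.06, limma adjusted p = 2.5e-04). HOMER2, a scaffold of glutamate receptor signalling, fell by a log2 difference of -0.29 (SE 0.05, adjusted p = 0.00488). The prostaglandin receptor PTGER4 (-0.08), the cytokine receptor LIFR (-0.09) and the calcium-dependent kinase CAMKK2 (0.02) did not pass. The 3 CAMKK2 probe sets past the filter ranged from -0.10 to 0.02.

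**Figure D3:**
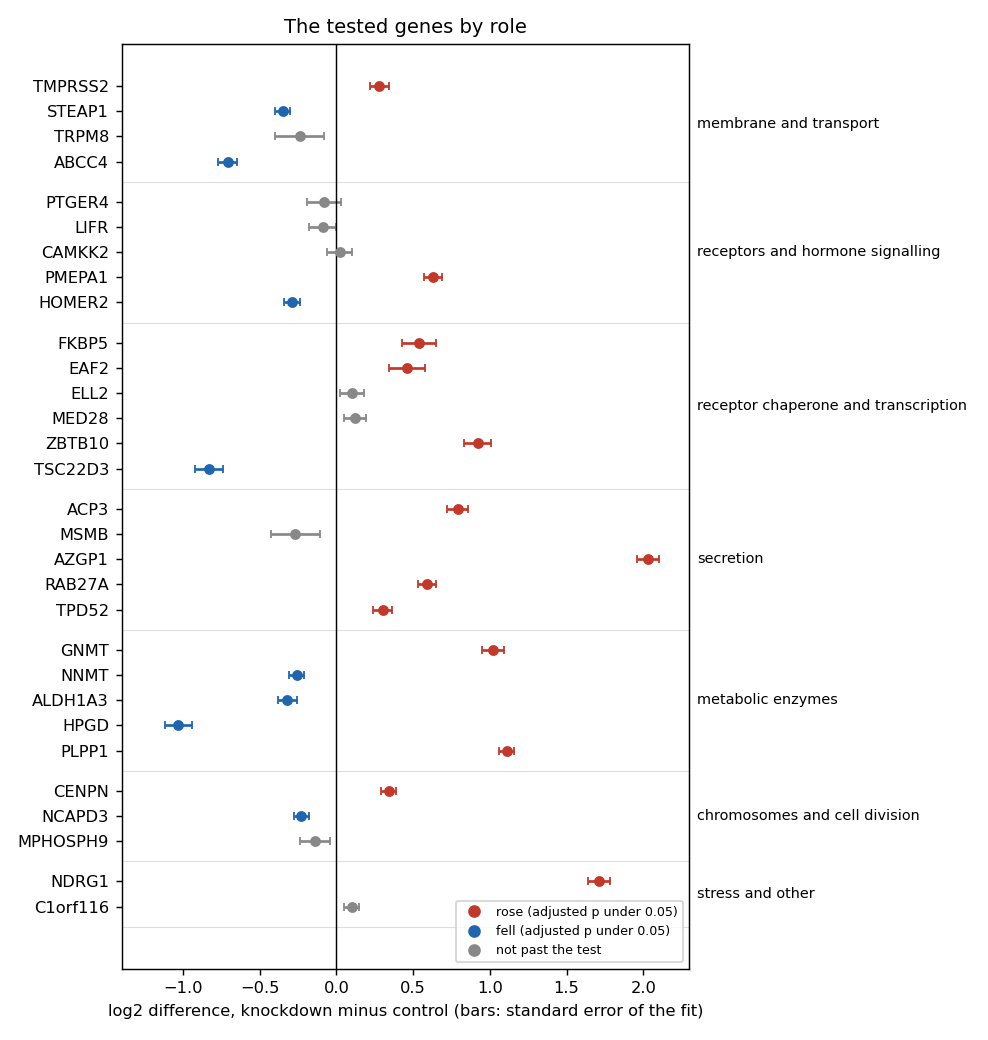
Log2 difference, knockdown minus control (x axis), with the standard error of the limma fit as bars, for the 30 tested genes grouped by role (y axis). AZGP1 (2.03), NDRG1 (1.71), PLPP1 (1.11) and GNMT (1.02) lie farthest to the right and HPGD (-1.03) farthest to the left.

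Of the remaining genes, NDRG1, a stress-responsive protein also induced by hypoxia, changed most. It measured 9.16, 9.10 and 8.95 in control and 10.82, 10.73 and 10.80 in knockdown arrays. The 3.27-fold rise (log2 difference 1.71, SE 0.07, limma adjusted p = 4.4e-06) ranked 22 of 9241 genes. C1orf116, whose product is known as specifically androgen-regulated gene protein, differed by 0.10 and did not pass (adjusted p = 0.151), although its arrays did not overlap.

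Among genes of chromosomes and cell division, the kinetochore protein CENPN rose by a log2 difference of 0.34 (SE 0.05, adjusted p = 0.0017). The condensin II subunit NCAPD3 fell by -0.23 (SE 0.05, adjusted p = 0.00817). MPHOSPH9, a centrosomal protein, differed by -0.14 on its brightest probe set, which did not pass. The second MPHOSPH9 probe set went the other way and passed the test of all probe sets (log2 difference 0.32, adjusted p = 0.00943), so no direction is given for this gene.

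More than 1 probe set passed the filter for 12 of the 30 genes. In 10 of the 12 they all differed in one direction, and CAMKK2 and MPHOSPH9 were the exceptions. That count is of sign alone and includes differences near 0, as in NNMT (-0.04), MSMB (-0.04) and TPD52 (0.08). For C1orf116 and MSMB, 0 probe sets passed the test of all probe sets. The other 18 genes, among them AZGP1, NDRG1, GNMT, ACP3 and ABCC4, rest on a single probe set.

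**Figure D4:**
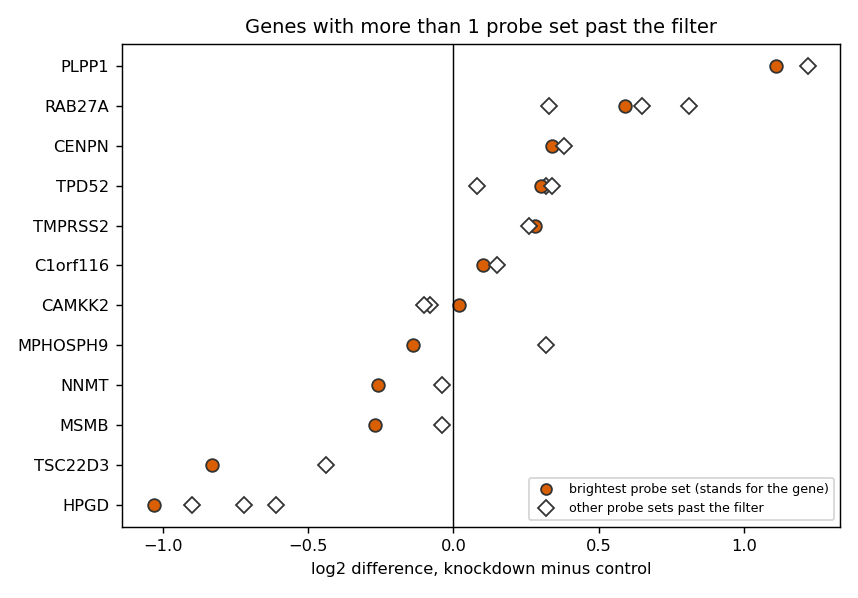
Log2 difference, knockdown minus control (x axis), of each probe set past the filter for the 12 genes with more than 1 (y axis). Filled circles are the brightest probe set, which stands for the gene, and open diamonds are the others. PLPP1 (1.11 and 1.22) and HPGD (-1.03 to -0.61) lie on one side of 0, and MPHOSPH9 has probe sets at -0.14 and 0.32.

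A second list held 81 other genes known to respond to androgen, and 71 were tested. Of these, 24 rose, 20 fell and 27 did not pass the test, so that 62.0% passed, against 35.9% of all genes. This list too was chosen with earlier results of these data known. The median log2 difference of the 71 genes was 0.02, beside 0.03 over all genes. The transcription factor MAF rose most (2.46), followed by the keratin KRT19 (1.67), the phosphatases PTPN21 (1.07) and CDC14B (1.02) and the kinase anchor AKAP12 (0.98). AKAP12 lay under the filter level in all control arrays (3.72, 3.50 and 3.82). It was tested only because its knockdown arrays (4.69, 4.81 and 4.48) passed the filter, so its rise is not independent of that filter. The kinase RPS6KA3 fell most (-1.34), then the lipase ABHD2 (-0.73), the coat protein SEC24D (-0.72), KLK3 (-0.71) and the cargo receptor LMAN1 (-0.70). When the probe sets of each gene were averaged, MAF changed by 1.75, CDC14B by 0.57 and SEC24D by -0.33. The kallikrein KLK2 rose, from 9.30, 9.30 and 9.45 to 9.86, 9.77 and 9.65 (log2 difference 0.41, SE 0.07, limma adjusted p = 0.00405). KLK3, which encodes prostate-specific antigen, fell, from 8.33, 8.28 and 8.15 to 7.62, 7.67 and 7.34 (log2 difference -0.71, SE 0.09, adjusted p = 0.00115).

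Of 12 listed genes of the receptor and its cofactors and chaperones, 8 had a probe set and were tested. Of these, 3 rose and 2 fell, beside 19.4% and 16.5% of all genes. Each of the 8 differed by less than 1.5-fold. Over all genes, a call with a change of at least 1.5-fold was rare, at 3.03% higher and 3.50% lower. The pioneer factor FOXA1 did not pass (0.09, adjusted p = 0.161). HOXB13, a prostate transcription factor that binds with the receptor, fell by a log2 difference of -0.25 (adjusted p = 0.0178), a call lost without control replicate 1 (adjusted p = 0.0526). HSP90AA1 fell (-0.25), whereas HSP90AB1 (0.30), the coactivator NCOA1 (0.27) and GRHL2 (0.34) rose.

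Of the 21 androgen-induced genes that passed the test, 19 kept their direction and passed under every alternative normalization, filter, summary, model or left-out array that gave them a value. The exceptions were EAF2 and NNMT. None of the 9 genes that did not pass in the main fit passed under any alternative that gave them a value.

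**Figure D5:**
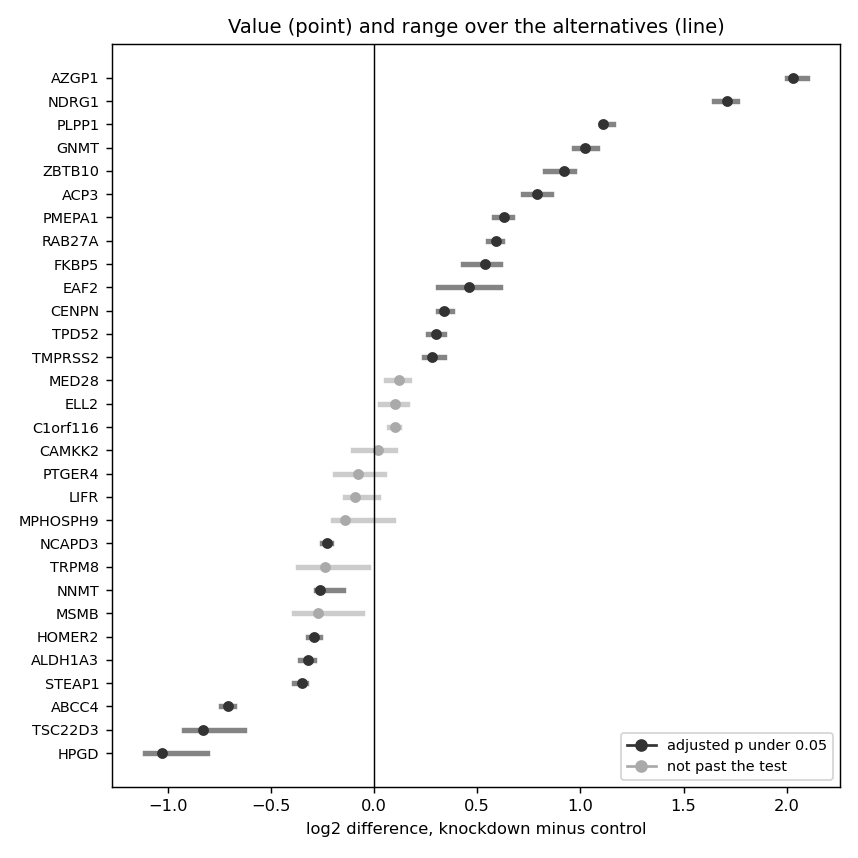
Log2 difference, knockdown minus control (x axis), for the 30 tested genes (y axis), as a point, with the range over all alternatives and left-out arrays as a line. Dark marks are genes past the test. AZGP1 ranged from 2.00 to 2.10 and HPGD from -1.11 to -0.81, while EAF2 ranged from 0.31 to 0.61.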

How the data were processed

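Trizol-extracted total RNA of LNCaP cells was made into biotinylated cRNA for 6 Affymetrix arrays of 1 colour, per the labels' protocols. The values are probe set intensities deposited by the authors on a linear scale after GCRMA, named without version or settings in the submitters' processing notes. In general GCRMA models background by probe sequence, equalises the arrays and fits 1 value per probe set, so dim signals are compressed. Array medians were 48.2 to 50.3. With 3 arrays a group, their number limits the precision.

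Intensities were log2-transformed. Probe sets were named from the platform annotation; 19064 of 22277 had 1 symbol, 1043 had several and the rest none or were controls, and 19052 of those with 1 symbol matched RefSeq (GRCh38.p14) by gene ID. Probe sets with at least 3 of 6 arrays at log2 4 or more (an intensity of 16) were kept, and the one with the highest mean stood for its gene. Knockdown was compared with control by limma 3.58.1 (lmFit, eBayes, R 4.3.3), Benjamini-Hochberg adjusted over 9241 genes. "Rose" and "fell" mean an adjusted p under 0.05. The fit was tested on simulated data. Other probe sets were tested in 1 fit of all probe sets past the filter. Genes given array by array were those changed at least 1.5-fold, plus TMPRSS2, FKBP5, STEAP1, STEAP4 and ACP3 whatever their change. Genes outside the set were named by rule: KLK2, KLK3, the 5 largest rises and 5 largest falls, FOXA1 and HOXB13. The array values of EAF2, MSMB and TRPM8, and the other cofactors named, were added after their values were seen. The genes and lists were chosen with earlier results of these data known. Some listed items are not reported here.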

Additional observations from a re-analysis of the deposited data

Results flagged for a closer look

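A pair of probe sets was left out of the gene tests, because each is paired with more than 1 symbol. They are given here because all knockdown arrays lay above all control arrays, so that separation is not a result in itself. Over all genes tested, the arrays of the groups did not overlap, in either direction, for 49.4%. No test value is given for either probe set. The probe set shared by AZGP1 and its pseudogene AZGP1P1 measured 4.67, 4.89 and 4.80 in control and 5.98, 5.95 and 5.83 in knockdown arrays, a log2 difference of 1.13. Which of these genes it measures is unknown. On the AZGP1 probe set without a second symbol the difference was 2.03.

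The probe set shared by HERC3, a ubiquitin ligase on the androgen-induced list, and PIGY-DT measured 7.56, 7.73 and 7.80 in control and 8.27, 8.04 and 8.27 in knockdown arrays. Its log2 difference was 0.50, and HERC3 had no probe set of its own here.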

How the results depend on the processing

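The counts of 13 rises and 8 falls among the androgen-induced genes stayed within 1.5 times under every alternative except 2. Without _x_at and _s_at probe sets, 7 rose and 5 fell of only 19 tested, where 1089 rose and 916 fell of 5851 genes. With a change of at least 1.5-fold required, 8 rose and 3 fell, where 280 rose and 323 fell of 9241 genes. Among the other androgen-response genes, 10 of 43 tested fell without _x_at and _s_at probe sets. At 1.5-fold or more, 13 rose and 7 fell of 71 tested. For both settings the counts over all genes are those just given. At an adjusted p under 0.01, 12 of the 71 fell, and the count over all genes at that threshold is not given here. Leaving out 1 array gave 12 to 13 rises and 8 falls in every case for the androgen-induced genes, and 19 to 23 rises and 15 to 19 falls for the others. Over all 9241 genes it gave 1294 to 1714 rises and 1173 to 1340 falls. The median of all genes stayed between 0.01 and 0.04 under the normalizations and filters tried, and 0 of the 30 genes changed direction past the test. With array weights, 12 of the androgen-induced genes rose and 8 fell, where 2340 and 1835 of all genes did. With the replicate number as a block, 13 rose and 8 fell, and 23 and 18 of the other androgen-response genes, where 1808 and 1586 of all genes did. Deviations of same-numbered arrays correlated weakly, at 0.11, 0.00 and 0.18, and those of differently numbered arrays at -0.15 to 0.05. Whether the replicate numbers pair the arrays is not settled by these values. The dim genes TRPM8, MSMB and LIFR lie close to the filter level of log2 4, so small changes in them may go undetected.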
